A study of Mus musculus with 42 samples.

Results

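The genes described here are 34 glycolysis and hypoxia-response genes, chosen by gene name from the 54532 genes of a bulk RNA-seq count table. They comprise 18 enzymes of glycolysis and its control, 4 sugar and lactate transporters, and 12 regulators or targets of hypoxia-inducible factor (HIF). All 34 were found and all 34 were among the 17648 genes that passed a filter on low counts. Aldoa had 2 rows in the table, and the row with more counts was used. The 42 libraries came from macrophages grown from the bone marrow of male wild-type C57BL/6 mice, either young (10 to 12 weeks) or aged (18 to 20 months).

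Each age had 6 groups. Control cells received 0.1% normal saline (NS) for 24 h and were collected on day 3. Other cells received the fungal cell wall sugar β-glucan (5 µg/mL), which was left on for 4 h or 24 h, or applied for 24 h with collection on day 3. A further group received the bacterial product lipopolysaccharide (LPS) at 100 ng/mL for 4 h, and the last was primed with β-glucan for 24 h, kept to day 3 and then given LPS for 4 h. Every group had 3 libraries except young control and young LPS, which had 6. Replicates 4 to 6 of those groups form a second set, for which the labels give no reason, and the fit carried a term for it. The labels call the libraries biological replicates without saying which animals they came from, so p-values measure the spread between these samples. The controls were collected on day 3 alone, so the 4 h and 24 h comparisons with control also differ in culture time, and these cannot be told apart. In bulk RNA, a lower share of a cell type and less RNA per cell cannot be told apart either.

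Glycolysis turns glucose into pyruvate and a little ATP without oxygen, and lactate dehydrogenase converts pyruvate to lactate, which the cell exports. HIF-1α is the oxygen-sensitive subunit of a transcription factor that raises many of these enzymes. Prolyl hydroxylases (the Egln proteins) mark HIF-1α for destruction when oxygen is present, and in activated macrophages HIF-1α is also known to accumulate in normal oxygen.

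Library totals ranged from 39850835 to 67347866 assigned reads. Levels are given as CPM (counts relative to library size) after TMM scaling, which sets each library by the bulk of its genes. All 8 macrophage markers were at or above 1 CPM in every group, with sums from 23100 to 39200 CPM. Of the 4 T cell genes, Cd4 alone reached 1 CPM in any group, and Cd3e and Cd8a were at 0 in all 12 groups. TMM factors ran from 0.667 to 0.777 in libraries with LPS and from 1.13 to 1.28 in those without, so the scaling matters for every LPS comparison. Scaling to total counts instead puts the median LPS effect over all genes at -0.896 (log2) in young cells and -0.818 in aged cells, against -0.10 and -0.08 with TMM.

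With LPS some members rose and others fell. The 250 bases before the transcription start are printed for the member of each role with the largest rise and the largest fall on LPS in young cells. The choice was among members called alike in both ages whose mean level was at least 1 on the log2 CPM scale. No transporter fell in both ages. Sequences are from RefSeq (GRCm38.p6), read 5′ to 3′ on the gene's own strand. Capitals mark ACGTG or GCGTG on either strand, the core letters of a HIF site, or a match to the NF-κB consensus. The stretches lie at chr13:6648772-6649021 (minus strand) for Pfkp, chr9:108991652-108991901 (plus) for Pfkfb4, chr2:27027999-27028248 (minus) for Slc2a6, chr10:59323046-59323295 (plus) for P4ha1 and chr17:46032378-46032627 (minus) for Vegfa.
Pfkp: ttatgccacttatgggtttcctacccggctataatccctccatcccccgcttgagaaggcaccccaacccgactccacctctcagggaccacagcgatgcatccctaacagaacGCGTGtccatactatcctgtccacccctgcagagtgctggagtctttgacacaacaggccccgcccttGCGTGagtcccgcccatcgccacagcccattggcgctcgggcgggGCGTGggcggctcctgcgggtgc
Pfkfb4: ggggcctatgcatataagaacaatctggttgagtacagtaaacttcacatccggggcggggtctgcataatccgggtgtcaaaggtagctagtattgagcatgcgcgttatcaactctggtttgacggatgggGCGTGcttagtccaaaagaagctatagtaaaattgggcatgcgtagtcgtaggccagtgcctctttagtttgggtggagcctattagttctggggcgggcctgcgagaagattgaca
Slc2a6: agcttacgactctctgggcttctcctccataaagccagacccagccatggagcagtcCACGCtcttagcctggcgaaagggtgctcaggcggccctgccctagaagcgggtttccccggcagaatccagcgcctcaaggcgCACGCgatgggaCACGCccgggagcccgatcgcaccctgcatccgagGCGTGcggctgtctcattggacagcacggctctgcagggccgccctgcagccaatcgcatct
P4ha1: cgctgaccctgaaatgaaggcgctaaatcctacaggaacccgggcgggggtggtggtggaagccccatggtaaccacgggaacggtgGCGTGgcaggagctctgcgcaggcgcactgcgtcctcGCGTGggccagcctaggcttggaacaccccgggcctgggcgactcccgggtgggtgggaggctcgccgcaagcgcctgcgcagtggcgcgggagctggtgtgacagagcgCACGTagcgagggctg
Vegfa: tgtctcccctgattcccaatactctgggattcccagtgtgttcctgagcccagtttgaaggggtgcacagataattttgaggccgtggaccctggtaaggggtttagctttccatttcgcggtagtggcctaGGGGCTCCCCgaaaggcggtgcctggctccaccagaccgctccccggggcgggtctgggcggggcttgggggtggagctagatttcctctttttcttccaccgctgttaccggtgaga

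Of the rising genes shown, Pfkp holds 3 HIF cores in this stretch, Slc2a6 holds 4 and P4ha1 holds 3. Of the falling genes, Pfkfb4 holds 1, and Vegfa holds none but has the NF-κB match. Over windows that add the 50 bases after the start, 33 of the 34 members matched the RefSeq table, Ndrg1 being the exception, and 25 of them (75.8%) held a HIF core, against 43.8% of all 32851 promoters. Overlapping matches were counted once. The members were chosen partly as HIF targets, and the 32851 promoters include those of genes not tested here, so these shares come from unlike sets. The core was in 13 of the 15 matched members that LPS raised in both ages and in 5 of the 8 that it lowered in both ages. Shares for all genes that LPS raised or lowered are not given here. The NF-κB consensus was in 1 of the 33 (3.03%), against 4.51% of all promoters. The windows of Hif1a, Ldha and Ankrd37 lie over 4 kb from the start that the count table lists. A match of this kind describes letters and shows no binding.

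LPS at 4 h changed most of the 34 genes, and both the enzymes and the HIF genes held members that rose and members that fell. Of the 4 transporters, 3 rose at each age and 1 fell in aged cells. In young cells 17 members rose and 10 fell at an adjusted p below 0.05 (quasi-likelihood test of edgeR, adjusted by the Benjamini-Hochberg method), when 65% of all genes tested were called, 30.3% higher and 34.7% lower. In aged cells 16 rose and 9 fell, against 55.5% of all genes called. The members' median log2 change was 0.22 in young and 0.28 in aged cells, and that of all genes was -0.10 and -0.08. Under total-count scaling the young split became 10 higher and 19 lower, and the split of all genes moved from 5352 higher and 6126 lower to 2581 higher and 10756 lower. The aged split became 11 higher and 19 lower. The 10 members higher under both scalings in young cells were Hk1, Hk3, Pfkp, Pfkfb3, Slc2a1, Slc2a6, Slc16a3, Hif1a, P4ha1 and Adm. In aged cells the same 10 and Hk2 were higher under both.

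**Figure D1:**
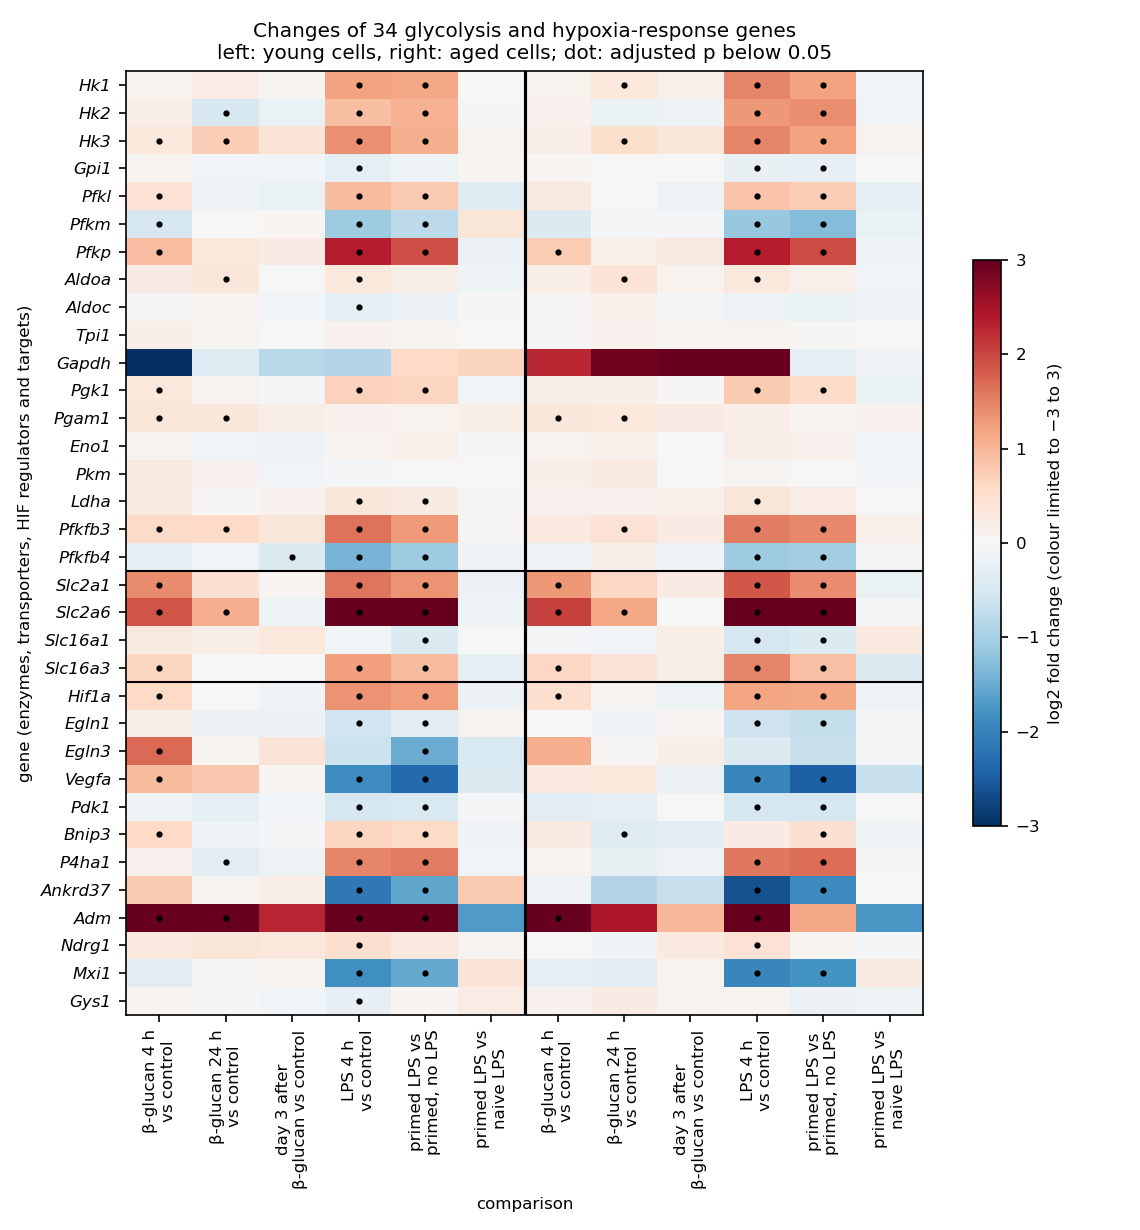
Fitted log2 fold changes of the 34 genes (rows, by role) in 6 comparisons (columns), young cells at left and aged cells at right; colour runs from -3 to 3 and a dot marks an adjusted p below 0.05. The LPS columns hold most dots, both columns of primed against naive LPS hold none, and the Gapdh row varies without passing the test.

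Among the transporters the change in Slc2a6 was the largest. Slc2a6 (chr2:27021363-27027998, minus strand in mm10) encodes a member of the glucose transporter family. Young controls had 18.1 to 29.8 CPM (median 22.4, n = 6), and the 6 young LPS libraries had 764 to 962 CPM (median 806). Aged controls had 15.6, 17.0 and 23.6 CPM, and aged LPS libraries had 818, 718 and 814 CPM. The groups lay far apart at both ages. The log2 change was 5.19 ± 0.17 (SE) in young cells (36.5-fold, adjusted p = 5.44e-23) and 5.38 ± 0.25 in aged cells (41.6-fold, adjusted p = 8.59e-19).

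Slc2a1 encodes GLUT1, the main glucose importer of many cells. It ranged from 36.4 to 96.3 CPM in young controls (median 46.9) and from 131 to 186 CPM with LPS (median 161). Aged controls had 46.9, 38.9 and 45.1 CPM, against 175, 148 and 155 CPM with LPS. Neither age showed an overlap. The log2 change was 1.60 ± 0.15 in young and 1.87 ± 0.21 in aged cells (adjusted p = 2.75e-11 and 3.68e-09). Per kilobase of gene length, Slc2a1 held 66.6% ± 6.7 (SD, n = 6) of the summed level of these glucose transporters in young controls and 15.0% ± 2.4 (n = 6) with LPS, Slc2a6 holding the rest.

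The lactate carriers differed. Slc16a3 encodes MCT4, a lactate exporter, and ranged from 26.7 to 52.1 CPM in young controls (median 32.4) and from 64.4 to 96.6 CPM with LPS (median 77.9). Aged libraries had 28.2, 24.1 and 29.6 CPM in control and 76.2, 76.6 and 71.8 CPM with LPS. No library overlapped at either age. The log2 change was 1.23 ± 0.12 in young and 1.46 ± 0.17 in aged cells. Slc16a1 encodes MCT1, which carries lactate in either direction, and its log2 change was -0.08 ± 0.12 in young cells (95% interval -0.309 to 0.154, adjusted p = 0.583). In aged cells it fell by 0.53 ± 0.17 (adjusted p = 0.00647), from 23.9, 20.6 and 23.4 CPM to 15.4, 13.98 and 17.7 CPM. The difference between the ages did not pass the test (-0.45 ± 0.20, adjusted p = 0.822).

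Of the 18 enzymes, 9 rose in each age on LPS, and 4 fell in young and 3 in aged cells. The enzymes called were 72.2% in young and 66.7% in aged cells, when 65% and 55.5% of all genes were called. The risers were all 3 hexokinases, Pfkl, Pfkp and Pfkfb3, and, further along, Aldoa, Pgk1 and Ldha, of which Aldoa and Ldha took the opposite sign under total-count scaling at both ages and Pgk1 in young cells. Hexokinases trap glucose inside the cell as a phosphate. Hk3 ranged from 223 to 255 CPM in young controls (median 243) and from 543 to 743 CPM with LPS (median 611). Aged libraries had 258, 249 and 311 CPM in control and 802, 733 and 719 CPM with LPS. The LPS groups lay above their controls throughout, by 1.37 ± 0.08 (log2) in young and 1.46 ± 0.12 in aged cells. Hk1 ranged from 76.8 to 95.9 CPM in young controls (median 86.6) and from 178 to 239 CPM with LPS (median 197), and rose by 1.21 ± 0.06. In aged cells Hk1 went from 90.4, 82.9 and 88.1 CPM to 262, 231 and 230 CPM, a rise of 1.47 ± 0.09. Neither age overlapped for Hk1. Hk2 ranged from 78.5 to 138 CPM in young controls (median 99.0) and from 172 to 214 CPM with LPS (median 187), a rise of 0.91 ± 0.11 that did not pass under total-count scaling. Aged cells went from 88.2, 70.6 and 77.4 CPM to 197, 190 and 198 CPM, a rise of 1.31 ± 0.16.

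Hk3 was the main hexokinase with and without LPS. Summed per kilobase of gene length, the 3 hexokinases stood at 92.9 ± 4.8 (SD, n = 6) CPM per kilobase in young controls and 226 ± 23 (n = 6) with LPS. Hk3 supplied 71.0% ± 3.6 of that sum in young controls and 75.3% ± 2.5 with LPS, and 75.9% ± 2.5 and 77.0% ± 0.5 in aged cells (n = 3).

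**Figure D2:**
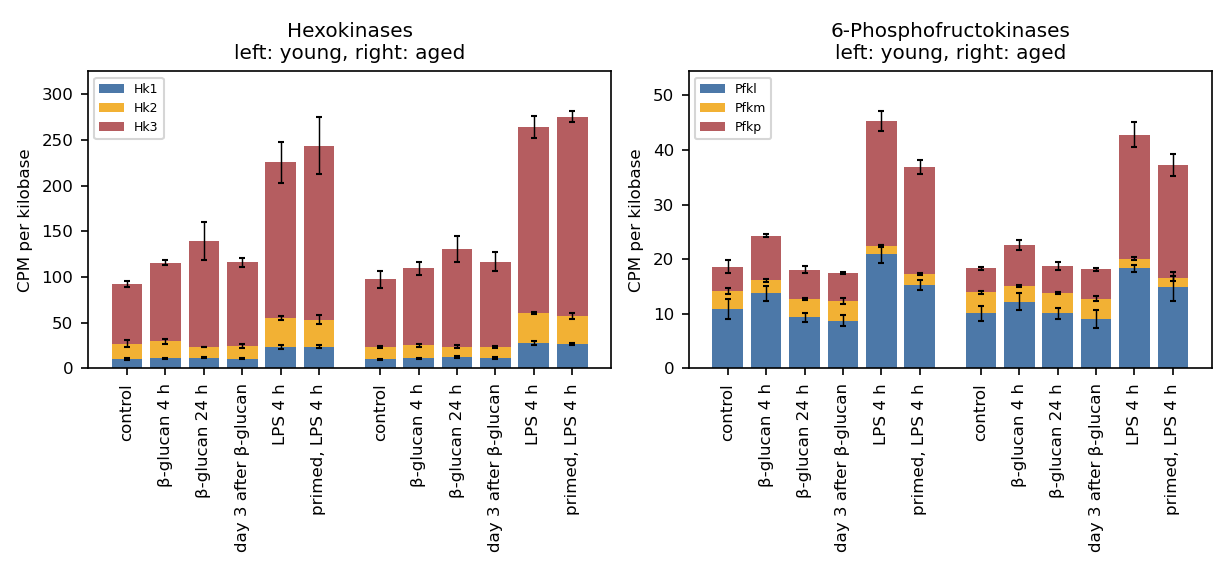
Stacked bars give the mean CPM per kilobase of the hexokinases (left panel) and phosphofructokinases (right panel) in each of the 12 groups, young at left and aged at right within a panel, with error bars of 1 SD for each gene. Hk3 is the tallest hexokinase segment in every group. On this scale, which depends on the listed gene lengths, Pfkp overtakes Pfkl in the 4 groups with LPS.

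The phosphofructokinases did change in makeup. This enzyme commits sugar to glycolysis and is assembled from liver (Pfkl), muscle (Pfkm) and platelet (Pfkp) subunits. Pfkp ranged from 48.0 to 90.5 CPM in young controls (median 55.5) and from 277 to 348 CPM with LPS (median 299). Aged controls had 59.2, 62.8 and 56.0 CPM, and aged LPS libraries had 339, 290 and 285 CPM. No library overlapped, and the log2 change was 2.36 ± 0.10 in young and 2.36 ± 0.14 in aged cells (adjusted p = 3.22e-22 and 3.59e-17). Pfkm, by contrast, ranged from 7.04 to 12.1 CPM in young controls and from 4.72 to 6.36 CPM with LPS, and fell by 1.06 ± 0.12. In aged cells Pfkm went from 12.0, 14.02 and 12.5 CPM to 6.93, 5.48 and 5.15 CPM, a fall of 1.14 ± 0.17. Pfkl ranged from 50.2 to 85.7 CPM in young controls (median 76.2) and from 122 to 151 CPM with LPS (median 142). It rose by 0.95 ± 0.10 in young and 0.87 ± 0.14 in aged cells, and neither call passed under total-count scaling. Pfkp held 23.9% ± 4.8 (n = 6) of the summed phosphofructokinase level per kilobase in young controls and 50.4% ± 1.9 (n = 6) with LPS, and 24.2% ± 2.2 and 53.0% ± 2.2 in aged cells (n = 3). The listed gene lengths were 13401 bases for Pfkp, 6675 for Pfkl and 3340 for Pfkm, and these shares depend on them. In CPM not divided by length, Pfkp already lay above Pfkl in each young library after 4 h of β-glucan. Pfkm overlaps the opposite-strand gene Senp1, whose counts came to 360% of its own, and Pfkp overlaps Pitrm1 (63.1%). The strand setting of the counting is not given in the sources used here, so reads of such pairs may not be told apart.

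Pfkfb3 and Pfkfb4 make and remove the sugar phosphate that switches phosphofructokinase on, and they moved apart. Pfkfb3 ranged from 33.0 to 48.4 CPM in young controls (median 42.9) and from 116 to 160 CPM with LPS (median 123). Pfkfb4 ranged from 36.4 to 46.6 CPM in young controls (median 40.3) and from 13.9 to 16.9 CPM with LPS (median 15.4). Every LPS library lay above its controls for the first gene and below them for the second. The log2 changes were 1.62 ± 0.08 for Pfkfb3 and -1.40 ± 0.08 for Pfkfb4 in young cells. Aged cells had 38.4, 48.1 and 42.7 CPM of Pfkfb3 in control and 121, 122 and 131 CPM with LPS, a change of 1.54 ± 0.11. Their Pfkfb4 went from 29.6, 32.4 and 32.5 CPM to 15.3, 14.5 and 15.0 CPM, a change of -1.08 ± 0.11. Pfkfb3 held 39.6% ± 4.2 (n = 6) of the pair's level per kilobase in young controls and 84.1% ± 1.9 (n = 6) with LPS.

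Pgk1, Aldoa, Ldha and Gpi1 changed by less than 1 log2 unit at both ages. Pgk1, which makes ATP in glycolysis, ranged from 346 to 465 CPM in young controls (median 419) and from 568 to 787 CPM with LPS (median 668). It rose by 0.70 ± 0.08 in young cells, where total-count scaling reverses the sign, and by 0.79 ± 0.12 in aged cells, where that scaling ends the call. The aldolase Aldoa rose by 0.31 ± 0.07 and 0.32 ± 0.09 in young and aged cells, with the sign reversed under total-count scaling at both ages. Ldha, the lactate dehydrogenase chain of muscle type, rose by 0.35 ± 0.08 and 0.35 ± 0.11, again with the sign reversed under total-count scaling at both ages. The young Ldha call was also lost with young replicates 4 to 6 alone. Aldoa young controls had 737.5 to 1002 CPM and LPS libraries 1020 to 1242 CPM, and Ldha had 387 to 499 and 480 to 698 CPM, so only Ldha overlapped. The aged calls of Aldoa and Ldha were also lost without aged control replicate 2 (adjusted p = 0.0639 and 0.0552). Gpi1, which turns the first sugar phosphate into the next, ranged from 309 to 350 CPM in young controls (median 321) and from 229 to 298 CPM with LPS (median 263). Gpi1 fell by 0.29 ± 0.06 in young and 0.22 ± 0.08 in aged cells, the latter call being lost without control replicate 1 or LPS replicate 2 or 3. Aldoc, a second aldolase, fell by 0.27 ± 0.08 in young cells and did not pass in aged cells. The young Aldoc call was lost with young replicates 4 to 6 alone (adjusted p = 0.161).

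Tpi1, Eno1, Pgam1 and Pkm did not pass the test on LPS at either age. The young log2 changes were 0.12 ± 0.07 for Tpi1, 0.09 ± 0.09 for Eno1 and -0.05 ± 0.08 for Pkm, the pyruvate kinase. Tpi1, Eno1 and Gapdh were the 3 members called in none of the 16 within-age comparisons. Pkm, Aldoa and Ldha stood at 285, 311 and 139 CPM per kilobase in young controls. Pfkp, with a listed length of 13401 bases, stood at 4.46.

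The counts assigned to Gapdh, a glycolytic dehydrogenase often used as a reference gene, varied far more between replicates than those of the other enzymes. Gapdh ran from 0.951 to 154 CPM over the 42 libraries, a 162-fold range, while Tpi1 ran from 215 to 311 CPM and Pgk1 from 346 to 838 CPM. Within young controls 5 libraries had 72.4 to 90.1 CPM and 1 had 4.68 CPM. The 3 aged controls had 4.31, 4.18 and 4.73 CPM. Its log2 change on LPS was -0.89 ± 1.06 in young and 3.20 ± 1.68 in aged cells, and neither passed the test (adjusted p = 0.482 and 0.107). High and low libraries occurred in most groups, as in primed aged cells with LPS at 0.951, 4.22 and 107 CPM. Of its listed near-copies, Gapdhs stayed at or below 1.26 CPM and Gapdh-ps15 at or below 0.164 CPM. Gm3839 and Gm10358, also listed as near-copies, stayed at or below 0.498 and 0.129 CPM. Gapdh overlaps Iffo1 on the opposite strand (53.5% of its counts). How the counting treated reads that match several places is not given in the sources used here. Whether the Gapdh values reflect the counting or the RNA was not tested.

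**Figure D3:**
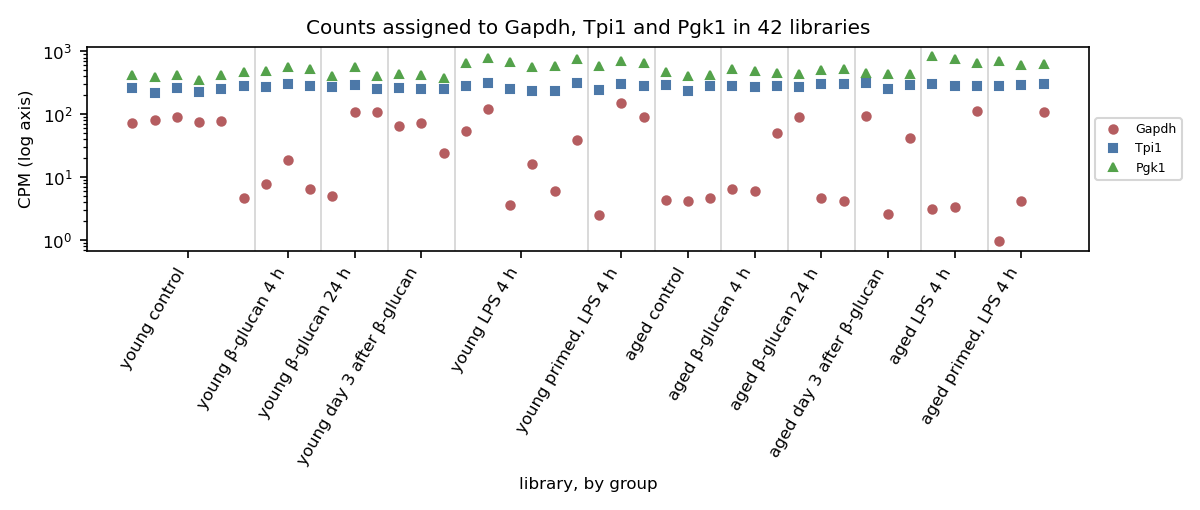
Level (CPM, log axis) of Gapdh, Tpi1 and Pgk1 in each of the 42 libraries, ordered by group. Gapdh points scatter from 0.951 to 154 CPM within and between groups, while Tpi1 points stay between 215 and 311 CPM.

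Among the 12 HIF regulators and targets, 5 rose and 6 fell on LPS in young cells, and 4 rose and 5 fell in aged cells. Those called were 91.7% in young and 75% in aged cells, when 65% and 55.5% of all genes were called. Of the risers, Ndrg1 took the opposite sign under total-count scaling at both ages and Bnip3 in young cells. Hif1a ranged from 102 to 153 CPM in young controls (median 135) and from 307 to 346 CPM with LPS (median 327). Aged controls had 122, 133 and 115 CPM, and aged LPS libraries had 288, 244 and 301 CPM. Groups were separate at both ages, with log2 changes of 1.34 ± 0.08 and 1.17 ± 0.11 (adjusted p = 8.15e-19 and 4.55e-12). P4ha1, a catalytic subunit of collagen prolyl hydroxylase, ranged from 107 to 151 CPM in young controls (median 123) and from 328 to 364 CPM with LPS (median 352). Aged cells had 127, 113 and 108 CPM in control and 385, 338 and 327 CPM with LPS. P4ha1 rose by 1.47 ± 0.07 and 1.59 ± 0.10, with no overlap.

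Smaller rises were called for Ndrg1, a stress-response gene, and Bnip3, which acts in removal of mitochondria. Ndrg1 ranged from 11.0 to 26.1 CPM in young controls (median 17.6) and from 19.5 to 30.3 CPM with LPS (median 25.4), and these ranges overlapped. It rose by 0.51 ± 0.10 in young and 0.44 ± 0.14 in aged cells, signs that total-count scaling reverses. Bnip3 ranged from 13.5 to 21.1 CPM in young controls (median 17.7) and from 18.4 to 32.7 CPM with LPS (median 29.5), and rose by 0.64 ± 0.08, again reversed under total-count scaling. In aged cells the log2 change of Bnip3 was 0.25 ± 0.12 (adjusted p = 0.067), and the difference between ages did not pass (adjusted p = 0.651).

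Textbook HIF targets were also among the members that fell furthest. Vegfa encodes the main growth factor for blood vessels. It ranged from 13.8 to 32.9 CPM in young controls (median 25.0) and from 4.16 to 14.3 CPM with LPS (median 5.33). Aged controls had 27.6, 34.5 and 32.5 CPM, and aged LPS libraries had 5.75, 7.22 and 11.4 CPM. Young groups overlapped through 1 LPS library at 14.3 CPM and aged groups did not overlap. Vegfa fell by 1.86 ± 0.25 (log2) in young and 1.95 ± 0.35 in aged cells (adjusted p = 8.14e-08 and 1.35e-05). Mxi1, an antagonist of Myc, ranged from 19.5 to 24.9 CPM in young controls (median 22.8) and from 5.25 to 7.38 CPM with LPS (median 6.49). It fell by 1.83 ± 0.10 and 1.96 ± 0.14, with no overlap at either age.

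Smaller falls were seen in Egln1, the main prolyl hydroxylase acting on HIF-1α, and Pdk1, a kinase that keeps pyruvate out of the mitochondrion. Egln1 ranged from 38.3 to 49.7 CPM in young controls (median 39.9) and from 21.8 to 31.3 CPM with LPS (median 28.1). It fell by 0.60 ± 0.08 in young and 0.61 ± 0.11 in aged cells. Pdk1 ranged from 52.2 to 76.2 CPM in young controls (median 64.5) and from 37.1 to 50.8 CPM with LPS (median 47.3), and fell by 0.50 ± 0.07 and 0.53 ± 0.10. Neither gene overlapped. Ankrd37, an ankyrin-repeat gene, fell by 2.15 ± 0.34 and 2.60 ± 0.47. It had 57 to 109 counts per library in young controls and 1 to 17 with LPS, and its opposite-strand neighbour Ufsp2 had 3030% of its counts. Gys1, glycogen synthase of muscle and other tissues, fell by 0.24 ± 0.10 in young cells. The call was lost without any 1 of 5 libraries (young control replicates 4, 5 and 6 and LPS replicates 4 and 5, highest adjusted p = 0.156). It was also lost with DESeq2 in place of edgeR, with young replicates 1 to 3 alone and with the compared groups fitted alone (highest adjusted p = 0.942). In replicates 1 to 3, Gys1 had 15.4, 16.8 and 17.0 CPM in young controls and 15.4, 18.3 and 15.1 CPM with LPS.

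**Figure D4:**
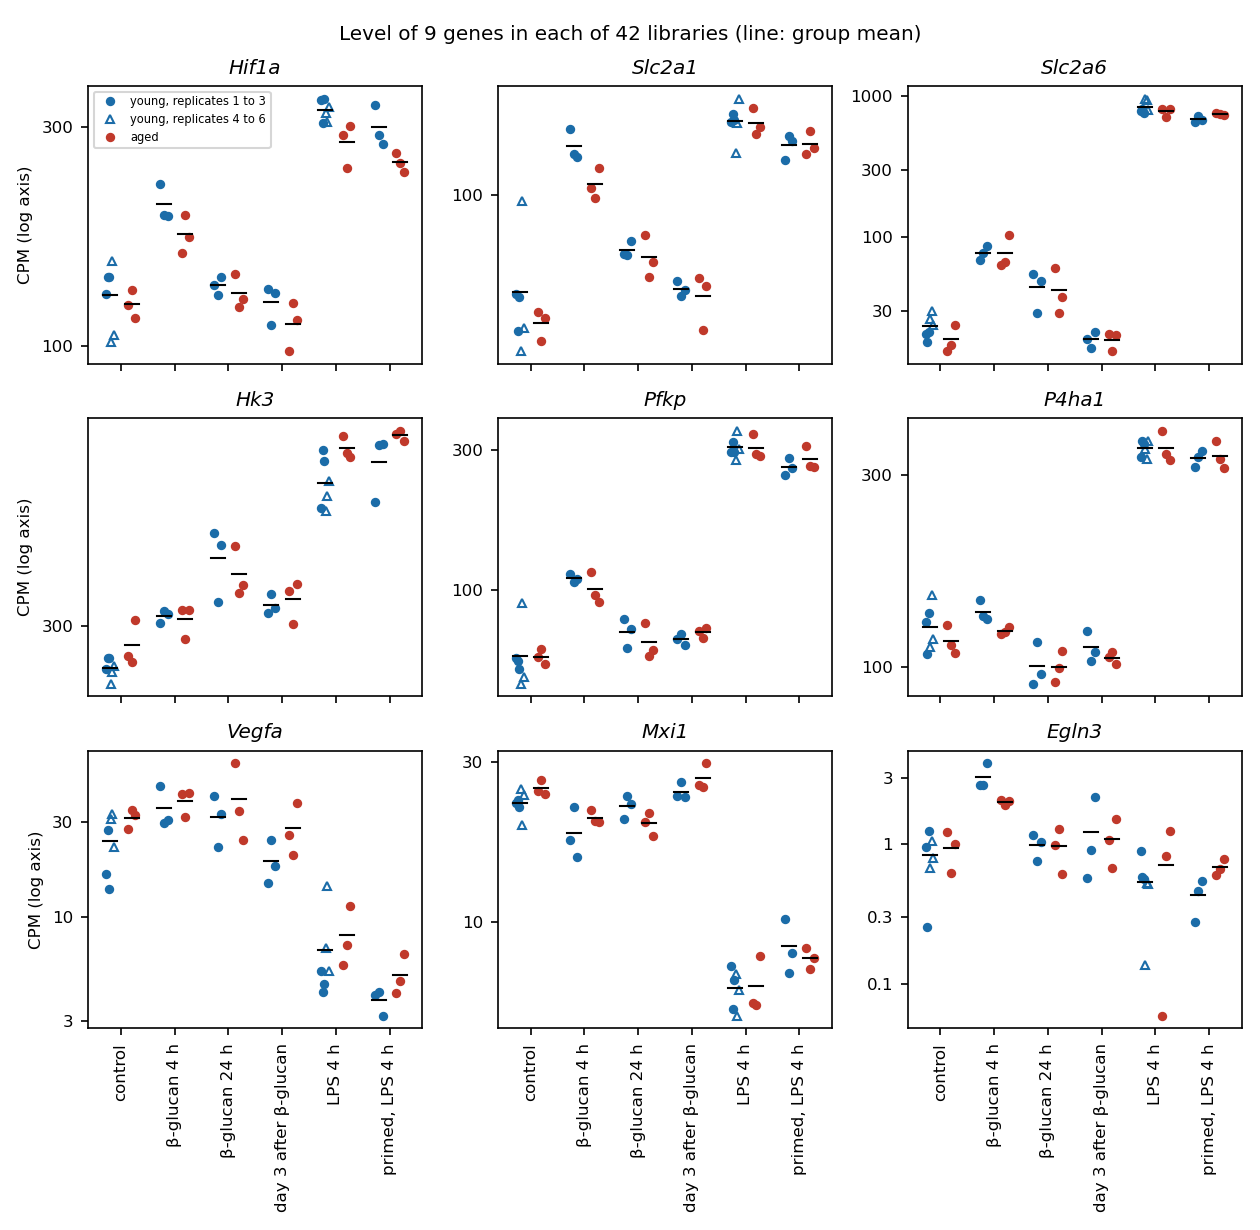
CPM (log axis) of 9 members in all 42 libraries by treatment; blue marks are young (open triangles for replicates 4 to 6), red marks aged, and lines are group means. Hif1a, Slc2a6, Hk3, Pfkp and P4ha1 lie highest in the LPS groups, whereas Vegfa and Mxi1 lie lowest there.

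Adm encodes adrenomedullin, a peptide that widens blood vessels, and was nearly unread in controls. The 6 young controls held 6 counts in all, with 4 libraries at 0, and the 6 young LPS libraries held 50 to 148 counts each. In CPM, the young LPS libraries had 1.53 to 5.21. The 3 aged controls held 13 counts in all, against 24 to 57 per library with LPS. The test called Adm at both ages (adjusted p = 1.01e-12 and 7.88e-05). Its fitted fold change depends on the prior count and is not given.

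Marker lists of other cells also moved with LPS. The endothelial list (Cdh5, Pecam1 and Kdr) summed to 4.07 to 6.93 CPM in young controls and 27.6 to 37.2 CPM with LPS, and to 3.69 to 3.95 and 26.7 to 31.8 CPM in aged cells. The dendritic list of 4 genes summed to 0.559 to 1.70 and 6.46 to 12.1 CPM in young and 0.775 to 0.866 and 7.63 to 9.58 CPM in aged cells, with 1 of the 4 reaching 1 CPM with LPS. The stromal list of 6 genes summed to 18.1 to 61.0 CPM in young controls, 32.1 to 106 CPM with LPS, 32.4 to 102 CPM in aged controls and 72.7 to 121 CPM in aged LPS libraries. Lum was at 0 in the controls of both ages. Their part in the members' changes was not tested.

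β-Glucan for 4 h raised a smaller set of the genes, among them both glucose transporters, Pfkp, Hif1a and Adm at both ages. In young cells 14 members rose and 1 fell, when 12.1% of all genes were called, 7.45% higher and 4.61% lower. In aged cells 7 rose and 0 fell, when 6.47% of all genes were called, 4.87% higher and 1.59% lower. The members' median log2 change in young cells was 0.27, and that of all genes 0.00228. By role, the young risers were 6 enzymes, 3 of the 4 transporters and 5 of the 12 HIF genes, and the aged ones 2, 3 and 2. The 7 called at both ages, all higher, were Pfkp, Pgam1, Slc2a1, Slc2a6, Slc16a3, Hif1a and Adm. The share of all genes called at both ages is not given here, so this count has no background beside it. These comparisons use the same day 3 controls as those with LPS. Total-count scaling moved the young members to 9 higher and 3 lower and the split of all genes from 1314 higher and 814 lower to 867 and 1588. In aged cells it moved the members to 5 and 1, and all genes from 860 and 281 to 597 and 519.

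Slc2a6 had 68.8, 77.3 and 85.8 CPM in young and 62.9, 66.2 and 103 CPM in aged cells after 4 h of β-glucan. Every one of these libraries was above all controls of its age. The log2 change was 1.90 ± 0.19 (3.72-fold, adjusted p = 8.67e-09) and 2.04 ± 0.22 (4.11-fold, adjusted p = 3.57e-08). Slc2a1 had 153, 130 and 127 CPM in young and 104, 98.2 and 119 CPM in aged cells, again apart from the controls. Its change was 1.41 ± 0.19 (2.66-fold, adjusted p = 1.67e-06) and 1.29 ± 0.21 (adjusted p = 5.35e-05). Slc16a3 rose by 0.63 ± 0.15 and 0.63 ± 0.16, the aged call being lost under total-count scaling (adjusted p = 0.0521) and without aged control replicate 2 or β-glucan replicate 3 (highest 0.124).

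Pfkp led the enzymes, at 113, 106 and 109 CPM in young and 115, 96.0 and 91.3 CPM in aged cells. No library overlapped with its controls, and the log2 change was 0.92 ± 0.13 (adjusted p = 1.05e-06) and 0.77 ± 0.14 (adjusted p = 0.000167). Pfkfb3 rose by 0.57 ± 0.10 in young cells (adjusted p = 4.1e-05). The rises of Hk3, Pfkl, Pgk1 and the fall of Pfkm in young cells each depended on single libraries. Hk3 and Pgk1 did not pass without any 1 of young control replicates 1 to 4 or β-glucan replicates 1 to 3 (highest adjusted p = 0.139 and 0.199). Pfkl did not pass without β-glucan replicate 1 or control replicate 2 (0.156), nor Pfkm without control replicate 1 or any β-glucan replicate (0.153). Total-count scaling also ended the calls of Hk3, Pfkl and Pgk1, and dropping the set term those of Pfkl and Pfkm. Hk3, Pgk1 and Pfkm were lost without the low-count filter. Hk3 was lost with young replicates 1 to 3 alone, Pgk1 with DESeq2 and Pfkm with the compared groups fitted alone. Pgam1, a phosphoglycerate mutase, rose by 0.37 ± 0.09 and 0.33 ± 0.09, and both calls were lost under total-count scaling, the aged one also without aged control replicate 1 or 2 or β-glucan replicate 1 or 3 (highest 0.227).

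Hif1a itself had 225, 193 and 192 CPM in young and 160, 192 and 173 CPM in aged cells after β-glucan, above every control of the same age. It rose by 0.60 ± 0.10 (adjusted p = 3.14e-05) and 0.51 ± 0.11 (adjusted p = 0.00189). Egln3, a prolyl hydroxylase whose gene is a HIF target, had 2.68, 2.64 and 3.82 CPM in young cells against 0.257 to 1.26 CPM in controls (median 0.877). These levels rest on 135 to 184 counts per library with β-glucan and 15 to 66 in controls. Egln3 rose by 1.70 ± 0.49 (adjusted p = 0.0159), a call lost without control replicate 2 or β-glucan replicate 3 (highest 0.0866). In aged cells its change was 1.08 ± 0.52 (adjusted p = 0.292).

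Vegfa had 45.9, 29.8 and 30.9 CPM in young cells after 4 h of β-glucan, which overlapped the controls. Its log2 change of 0.95 ± 0.30 (adjusted p = 0.0334) did not pass without young control replicate 1 or 3 or β-glucan replicate 1 or 3 (highest 0.233). The Vegfa call was also lost under total-count scaling and without the low-count filter or the set term. Young replicates 1 to 3 alone and the compared groups fitted alone ended it too. Bnip3 rose by 0.60 ± 0.11 in young cells. Adm held 50 to 130 counts per library in young cells and 41 to 54 in aged cells (adjusted p = 8.39e-09 and 0.00154). The 8 calls made in young cells alone were not shown to differ by age, since none of the age differences passed the test. The dendritic marker list was also higher after 4 h of β-glucan, at 2.23 to 3.83 CPM in young and 1.89 to 3.15 CPM in aged cells, above all controls of the same age. Of its 4 genes 1 reached 1 CPM, and Flt3 and Siglech were at 0 in both groups. At 24 h it summed to 1.23 to 2.36 and 1.13 to 2.12 CPM. Its part in the members' changes with β-glucan was not tested.

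After 24 h of β-glucan fewer members were called in young cells than at 4 h, and Slc2a6 and Hk3 were among the rises at both ages. In young cells 6 rose and 2 fell, when 11.5% of all genes were called (7.79% higher, 3.75% lower). In aged cells 6 rose and 1 fell, when 5.22% were called (4.02% higher, 1.21% lower). Hk3, Aldoa, Pgam1, Pfkfb3 and Slc2a6 were higher at both ages, Adm was called higher in young cells alone and Hk1 in aged cells alone. Total-count scaling gave 4 higher and 3 lower in young cells and 4 and 1 in aged cells. All genes moved under it from 1375 higher and 662 lower to 855 and 1453 in young cells, and from 709 and 213 to 482 and 416 in aged cells.

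Hk3 had 484.5, 339.7 and 457.5 CPM in young cells at 24 h, all above the controls, and rose by 0.75 ± 0.11 (adjusted p = 3.06e-06). In aged cells it had 453, 356 and 372 CPM and rose by 0.53 ± 0.12 (adjusted p = 0.00304), a call lost without aged 24 h replicate 1 (0.0693) and with the compared groups fitted alone (0.0714). Slc2a6 had 54.5, 28.8 and 48.6 CPM in young and 60.3, 28.7 and 37.8 CPM in aged cells. The young libraries overlapped the controls and the aged ones did not. Slc2a6 rose by 1.08 ± 0.20 (adjusted p = 0.000268) and 1.17 ± 0.21 (adjusted p = 0.000687), and was the 1 aged call of the 7 kept without any single library, though it was lost with the compared groups fitted alone (adjusted p = 0.131). Slc2a1 did not pass at 24 h, at 0.45 ± 0.19 (adjusted p = 0.142) and 0.62 ± 0.21 (adjusted p = 0.0807). Hif1a stood at 0.01 ± 0.10 (adjusted p = 0.965) and 0.08 ± 0.11 (adjusted p = 0.768) relative to control.

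The other rises at 24 h were small in the enzymes and rested on few counts in Adm. Aldoa rose by 0.35 ± 0.09 in young cells (adjusted p = 0.00521), a call lost under total-count scaling (0.054), with the compared groups alone (0.0769) and without 24 h replicate 1 (0.0691). In aged cells Aldoa rose by 0.40 ± 0.09 (adjusted p = 0.0057), a call lost with the compared groups alone (0.104) and without control replicate 2 (0.105). Pgam1 rose by 0.35 ± 0.09 in young cells (adjusted p = 0.00662), which total-count scaling ended (0.0878). In aged cells Pgam1 rose by 0.31 ± 0.09 (adjusted p = 0.0444), a call lost in 8 of 11 settings, among them total-count scaling (0.179) and the absence of any 1 library but control replicate 3 (highest 0.334). Pfkfb3 rose by 0.59 ± 0.10 and 0.44 ± 0.11, the aged call being lost without control replicate 1 (0.0867) and with the compared groups alone (0.0718). Hk1 rose by 0.31 ± 0.09 in aged cells (adjusted p = 0.033), a call lost under total-count scaling (0.14), without the low-count filter (0.053), with the compared groups alone (0.118) and without any 1 control or 24 h replicate 1 (highest 0.23). Adm held 7 to 12 counts per library in young cells at 24 h, against 6 in all 6 controls together, and was called (adjusted p = 0.00447). In aged cells Adm held 7 to 40 counts per library and did not pass (adjusted p = 0.086).

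Hk2 and P4ha1 fell at 24 h in young cells, by 0.47 ± 0.15 and 0.31 ± 0.09 (adjusted p = 0.0298 and 0.0208). Both calls were lost without young control replicate 1 or 3 or 24 h replicate 1 or 3. Fitting the compared groups alone also ended both, and dropping the low-count filter ended that of Hk2. Bnip3 fell by 0.38 ± 0.12 in aged cells (adjusted p = 0.0453), a call lost without any 1 of 5 libraries (aged control replicates 1 and 2 and all 3 at 24 h). The Bnip3 call was also lost without the low-count filter and with the compared groups fitted alone. Without young 24 h replicate 1 the young count was 5, and without aged control replicate 1 or 2 or aged 24 h replicate 1 the aged count was 3.

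By day 3 after β-glucan few members differed from control. In young cells 1 member was called, Pfkfb4, when 0.782% of all genes were, 0.544% higher and 0.238% lower. It had 30.5, 26.0 and 32.1 CPM against 36.4 to 46.6 CPM in controls, which did not overlap, and fell by 0.44 ± 0.10 (adjusted p = 0.0246). The call was lost without day 3 replicate 1 or 2 (highest 0.304), with young replicates 1 to 3 alone and with the compared groups fitted alone. In aged cells 0 members were called by edgeR and 0 by DESeq2, 5 having an unadjusted p below 0.05, when 0.221% of all genes were called, 0.136% higher and 0.085% lower. The log2 difference of Hk3 from control was 0.40 ± 0.11 (adjusted p = 0.0641) in young and 0.34 ± 0.12 (adjusted p = 0.325) in aged cells. Leaving out Gapdh and Adm, the 95% interval lay within 1 log2 unit of 0 for 31 of 32 members in young and 30 in aged cells, and within 0.5 for 23 and 24.

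The direct comparison of LPS with β-glucan at 4 h does not use the day 3 controls. In young cells 11 members were higher with LPS and 12 lower, when 53.6% of all genes were called (24.2% higher, 29.4% lower). In aged cells 13 were higher and 9 lower, when 51.6% were called (23.9% higher, 27.7% lower). At both ages 11 were higher and 8 lower, with no share of all genes called at both ages to set beside them. Under total-count scaling the splits became 6 and 22 in young and 7 and 19 in aged cells, and those of all genes moved from 4275 higher and 5183 lower to 2125 and 9750 and from 4219 and 4893 to 2071 and 9149.

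**Figure D5:**
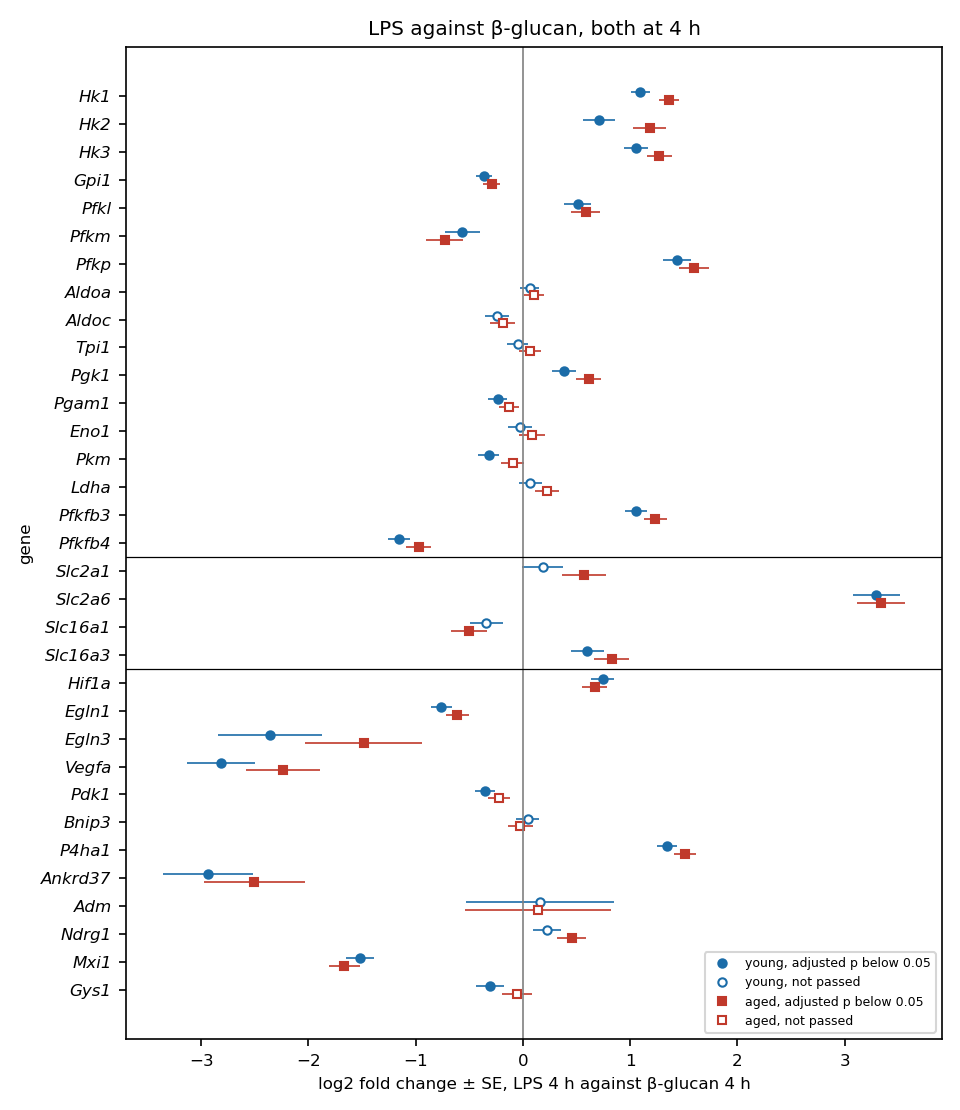
Log2 difference (LPS minus β-glucan, both at 4 h) of each member except Gapdh, with its SE. Blue circles are young and red squares are aged, filled where the adjusted p was below 0.05. Slc2a6 lies farthest to the right at 3.29 and 3.34, and Ankrd37, Vegfa and Egln3 lie left of -1 at both ages.

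HIF genes were among the members lower with LPS. The log2 difference of Vegfa was -2.81 ± 0.32 (adjusted p = 4.11e-09) in young and -2.24 ± 0.35 (adjusted p = 1.89e-06) in aged cells. The same difference was -2.94 ± 0.42 and -2.50 ± 0.47 for Ankrd37, and -1.52 ± 0.13 and -1.66 ± 0.14 for Mxi1. For Egln3 it was -2.36 ± 0.49 (adjusted p = 6.25e-05) and -1.49 ± 0.54 (adjusted p = 0.0204), the aged call being lost without aged LPS replicate 1 (0.145). Egln1 differed by -0.76 ± 0.10 and -0.61 ± 0.11. Of the enzymes, Pfkfb4 was lower with LPS, with differences of -1.15 ± 0.10 and -0.97 ± 0.11.

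Higher with LPS than with β-glucan were Slc2a6 by 3.29 ± 0.22 (9.81-fold) and 3.34 ± 0.22, Pfkp by 1.44 ± 0.13 and 1.59 ± 0.14, and P4ha1 by 1.34 ± 0.10 and 1.51 ± 0.10. Hk1, Hk3 and Pfkfb3 were higher by 1.05 to 1.36 at either age. Hif1a was higher by 0.74 ± 0.11 and 0.67 ± 0.11, and neither call passed under total-count scaling. Slc2a1, which both stimuli raised over control, differed between them by 0.18 ± 0.19 in young cells (95% interval -0.188 to 0.557, adjusted p = 0.444). In aged cells it was higher with LPS by 0.57 ± 0.21 (adjusted p = 0.0194), a sign that total-count scaling reverses and a call lost without aged β-glucan replicate 1 or 2 or LPS replicate 1.

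Cells primed with β-glucan were also given LPS. Against primed cells without LPS, 15 members rose and 9 fell in young cells, when 51.7% of all genes were called (24.9% higher, 26.7% lower). In aged cells 13 rose and 9 fell, when 52.2% were called (24.8% higher, 27.4% lower). At both ages 13 rises and 8 falls were called, again with no share over all genes beside them. Total-count scaling gave 10 higher and 19 lower in young and 9 and 19 in aged cells, with all genes moving from 4403 and 4716 to 2251 and 9240 and from 4375 and 4838 to 2259 and 9141. Slc2a6 went from 18.8, 16.4 and 21.1 CPM to 661, 730 and 677 CPM in young cells. In aged cells it went from 20.5, 15.4 and 20.2 CPM to 764, 744 and 732 CPM. Nothing overlapped, and the log2 change was 5.20 ± 0.24 and 5.32 ± 0.25.

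Vegfa went from 14.9, 24.5 and 18.0 CPM to 4.06, 4.20 and 3.17 CPM in young primed cells. In aged primed cells it went from 25.8, 20.4 and 37.4 CPM to 4.12, 4.74 and 6.47 CPM. It fell without overlap by 2.33 ± 0.37 and 2.44 ± 0.36. Pfkp rose by 1.95 ± 0.14 at both ages, P4ha1 by 1.56 ± 0.10 and 1.67 ± 0.10, Hif1a by 1.26 ± 0.11 and 1.17 ± 0.11, and Hk3 by 1.07 ± 0.12 and 1.22 ± 0.12. Mxi1 fell by 1.53 ± 0.14 and 1.79 ± 0.14. Ldha, Egln3 and Adm were called in young primed cells and not in aged ones. The Ldha call had the opposite sign under total-count scaling and was lost without any 1 of the 3 day 3 libraries or primed LPS replicate 2 or 3 (highest adjusted p = 0.143). Dropping the low-count filter or the set term also ended it. The Egln3 call was lost without day 3 replicate 3 or primed LPS replicate 1 or 2 (highest adjusted p = 0.316).

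Primed and naive cells given LPS were compared directly. The labels give a 24 h pretreatment and day 3 for the primed LPS groups and neither for the naive ones. These groups may therefore also differ in culture time, which cannot be told apart from priming. The same naive groups enter the primed minus naive LPS effect. In the direct comparison edgeR called 0 members in young cells, when 3.61% of all genes were called, and DESeq2 called 0. Before adjustment 4 members had a p below 0.05. In aged cells it called 0, when 0.986% of all genes were, DESeq2 again called 0, and 3 members had a p below 0.05 before adjustment. The smallest young adjusted p was 0.101, for Mxi1 (0.40 ± 0.14), and the smallest aged one was 0.294. Slc2a6 differed by -0.14 ± 0.19 and -0.07 ± 0.20, with 95% intervals of -0.509 to 0.236 and -0.465 to 0.327. The interval lay within 1 log2 unit of 0 for 29 of 32 members in young and 30 in aged cells. The LPS effect in primed cells minus that in naive cells gave 0 calls at either age, when 1.01% of all genes were called in young and 0.0113% in aged cells. Unadjusted p fell below 0.05 for 6 and 3 members, and DESeq2 called 1 and 0.

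Age was compared in unstimulated cells and in the response. Aged controls were higher than young controls in 2 members, both HIF targets, when 0.442% of all genes were called. Ndrg1 had 25.4, 28.2 and 26.8 CPM in aged controls and 11.0 to 26.1 CPM in young ones, which overlapped. Bnip3 had 24.6, 23.4 and 21.3 CPM against 13.5 to 21.1 CPM, without overlap. The log2 differences were 0.59 ± 0.12 (adjusted p = 0.00682) and 0.44 ± 0.10 (adjusted p = 0.0293). With young replicates 1 to 3 alone they were 0.31 (adjusted p = 0.423) and 0.21 (adjusted p = 0.545), and the second set holds no aged libraries. Ndrg1 also did not pass without aged control replicate 3 (0.068), nor Bnip3 without any 1 of young control replicates 3, 4 and 5 or aged control replicates 1, 2 and 3 (highest 0.203).

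The treatment effects were then compared between ages. edgeR called 0 members for the difference in each of the 5 contrasts, when 0.00567% of all genes were called for β-glucan at 4 h and for primed against naive LPS, and 0% for β-glucan at 24 h, day 3 and LPS. Unadjusted p fell below 0.05 for 2 members (β-glucan 4 h), 1 (24 h), 1 (day 3), 7 (LPS) and 1 (primed against naive LPS), and DESeq2 called 0 in each. For LPS the 95% interval of the age difference lay within 1 log2 unit of 0 for 30 of the 32 members and within 0.5 for 21. The lowest adjusted p there was 0.641, for Adm.

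Pathway genes outside the 34 were also counted, from lists chosen with earlier results of these data known, and their counts stand beside the 65% of all genes called on LPS in young cells (30.3% higher, 34.7% lower) and the 55.5% in aged cells (26.6% higher, 28.9% lower). Of the 15 other glycolysis genes tested, 2 rose and 7 fell on LPS in young cells and 3 rose and 8 fell in aged cells. Of 11 other sugar and lactate transporters, 1 rose and 9 fell in young and 1 and 8 in aged cells, with a median log2 change of -1.29 and -1.54. Of 13 genes of pyruvate entry into the mitochondrion, 6 rose and 3 fell in young and 5 and 3 in aged cells, and of 15 glycogen genes 2 rose and 11 fell and 2 and 10. Total-count scaling turned the young counts to 1 and 12 for other glycolysis, 0 and 10 for transporters, 1 and 10 for pyruvate entry and 0 and 12 for glycogen. It turned the aged counts to 0 and 11, 0 and 10, 1 and 11, and 0 and 12 for the same lists. Slc37a2, a sugar phosphate carrier, fell by 1.92 ± 0.09 in young cells, from a mean of 436 to 115 CPM. Slc2a3, which encodes GLUT3, fell by 1.90 ± 0.17, and Pfkfb2, a relative of Pfkfb3, by 2.01 ± 0.14. Pdk2, a relative of Pdk1, fell by 2.72 ± 0.17, and Ppp1r3b, a glycogen-targeting subunit of protein phosphatase, by 2.90 ± 0.14. Eno2, a second enolase, rose by 1.63 ± 0.16.

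Of 11 tested HIF pathway regulators, 7 rose and 2 fell on LPS at each age, against 2 and 7 at each age under total-count scaling. Cited2, an inhibitor that competes with HIF for its coactivators, rose by 3.72 ± 0.10 in young cells, from a mean of 81.3 to 1077 CPM. Epas1, which encodes HIF-2α, fell by 0.96 ± 0.12. Of 27 tested HIF targets outside the 34, 10 rose and 14 fell in young and 11 and 11 in aged cells, against 7 and 17 in young and 7 and 16 in aged cells under total-count scaling. The mean level of Nos2, inducible nitric oxide synthase, was 0.0176 CPM in young controls and 653 CPM with LPS. Zfp395, a zinc-finger gene, fell by 6.75 ± 0.17, from a mean of 33.0 to 0.301 CPM.

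β-Glucan for 4 h raised 8 and lowered 1 of these 27 other HIF targets in young cells, and raised 6 and lowered 1 in aged cells, when 12.1% and 6.47% of all genes were called. Under total-count scaling these counts were 7 and 2 in young and 2 and 1 in aged cells. Ak4, a mitochondrial adenylate kinase, rose by 2.32 ± 0.26 in young cells, from a mean of 1.34 to 7.73 CPM, and by 1.30 ± 0.29 in aged cells. Hilpda, a protein of lipid droplets, rose by 1.11 ± 0.25 in young cells. Between primed and naive LPS, the glycogen branching enzyme Gbe1 was lower in primed cells by 0.35 ± 0.09 in young cells (adjusted p = 0.0131) and 0.36 ± 0.09 in aged cells (adjusted p = 0.0441), and neither passed under total-count scaling (adjusted p = 0.0608 and 0.114). The repressor gene Bhlhe40 was higher in young primed cells by 0.64 ± 0.15 (adjusted p = 0.00951).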

How the data were processed

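Bulk RNA was sequenced from 42 libraries in 12 groups. The authors deposited raw counts per gene. Reads were aligned with STAR to mm10 per the submitters' processing notes; the counting program and its strand setting are not given in the sources used here. A deposited table of FPKM values was not used. No column was left unmapped to a sample. Gene lengths were those listed with the counts, and levels per kilobase depend on them.

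Genes were filtered with edgeR's filterByExpr (minimum count 10), scaled by TMM and tested by edgeR 4.0.16 (R 4.3.3, limma 3.58.1) with the quasi-likelihood test on 12 groups and the set term, in 22 comparisons, each adjusted by Benjamini-Hochberg over all 17648 genes tested, with a threshold of 0.05. Fold changes involving young controls or young LPS are therefore adjusted for set and need not equal the ratio of means. Errors of log2 changes are SE, and those of levels are SD. DESeq2 1.42.0 and other settings were alternatives. The script was tested on simulated counts. No libraries within a group agreed within sampling noise (smallest chi-square per gene 10.72 over 60 pairs). Promoters came from RefSeq (GRCm38.p6).

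The members and lists were chosen with earlier results of these data known. The genes named were, per role and comparison, up to 6 called members with the largest changes in each direction, and up to 4 called genes of each other list whose mean level was at least 1 on the log2 CPM scale; some of these are given by their counts only, and 1 result among the other lists is not reported here. Of the marker lists, neutrophil genes summed to at most 1.32 CPM in any library, T cell genes to 10.2, B cell genes to 0.603, mast cell genes to 0.590 and erythroid genes to 0.787.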

Additional observations from a re-analysis of the deposited data

Results flagged for a closer look

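In the groups of 6 libraries, 9 values stood apart from the other 5 of their group by Dixon's criterion. There were 68 such group tests, and chance gives about 1 in 20. Young control replicate 5 supplied 4 of the 9. In it Slc2a1 was at 96.3 CPM (36.4 to 52.6 in the others), Pfkp at 90.5 CPM (48 to 58.5), Slc16a3 at 52.1 CPM (26.7 to 33.8) and Pfkm at 7.04 CPM (10.9 to 12.1). Without that library the young log2 LPS effects were 1.87 for Slc2a1, 2.52 for Pfkp, 1.38 for Slc16a3 and -1.16 for Pfkm, and all 4 still passed edgeR's test. The young β-glucan effects at 4 h without it were 1.55, 1.00, 0.712 and -0.543, and these also passed.

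In young control replicate 6, Gapdh was at 4.68 CPM (72.4 to 90.1 in the others) and Gpi1 at 350 CPM (309 to 322). Among young LPS libraries, Pfkm was at 6.36 CPM in replicate 1 (4.72 to 5.32), Pfkfb3 at 160 CPM in replicate 4 (116 to 125) and Vegfa at 14.3 CPM in replicate 5 (4.16 to 6.97). What sets these libraries apart was not tested.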

How the results depend on the processing

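Of 183 called member results, 117 kept direction and call in every setting tried, 66 were lost or reversed in some setting, and 20 of those reversed, all under total-count scaling, under which the median LPS effect of all genes falls. The reversed log2 values were, for LPS in young cells, Aldoa -0.486, Pgk1 -0.101, Ldha -0.451, Bnip3 -0.157 and Ndrg1 -0.291, and in aged cells Aldoa -0.422, Ldha -0.387 and Ndrg1 -0.303. For LPS against β-glucan they were Pfkl -0.173, Pgk1 -0.302 and Slc16a3 -0.081 in young and Pfkl -0.0676, Pgk1 -0.0421, Slc2a1 -0.0813 and Ndrg1 -0.198 in aged cells. For primed LPS they were Pgk1 -0.0324, Ldha -0.411 and Bnip3 -0.0991 in young and Pgk1 -0.107 and Bnip3 -0.201 in aged cells. Counts of called members that moved by over 1.5 times were few. β-Glucan at 24 h gave 4 in young and 1 in aged cells with the compared groups fitted alone, and 4 in aged cells without the low-count filter. Day 3 in young cells gave 3 with DESeq2, 4 without the set term and 0 with replicates 1 to 3 alone. Primed against naive LPS in young cells gave 1 under total-count scaling, 3 without the set term and 2 with the compared groups alone, and the primed minus naive LPS effect gave 1 with DESeq2. Aged against young control gave 1 under total-count scaling and 0 under each of 3 settings (the set term dropped, young replicates 4 to 6 dropped, and the compared groups alone). Leaving out single libraries, the counts ran from 5 to 12 for young 24 h, 0 to 2 for young day 3, 0 to 1 for the young primed minus naive effect, 3 to 7 for aged 24 h and 0 to 3 for aged against young control. Same-numbered libraries deviated together by correlations of -0.121 to 0.0664 in young and -0.0361 to 0.114 in aged cells. Differently numbered ones had -0.14 to 0.0372 and -0.0813 to 0.0417. In aged cells the medians for replicates 1, 2 and 3 were 0.0396, 0.0416 and 0.052, against -0.0199 for different numbers. These weak values do not settle whether the numbers pair the libraries. With the replicate block, young day 3 gave 3 and the young primed minus naive effect gave 1, and no other count moved by over 1.5 times. The causes were not tested. Other pathway genes called over all comparisons came to 442, and to 463, 536 and 419 with DESeq2, total-count scaling and no filter, settings added after seeing the data, as were young replicates 4 to 6 alone. Depth limits Adm, Egln3 and Ankrd37, which have few counts.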
